A study of Mus musculus with 4 samples.

Results

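The genes that make cholesterol, the SREBP factors and partners that control them, and Lbr were compared between lamin A/C knockdown and control melanoma cells. The set was fixed as a list of 29 symbols. Of these, 28 matched a row of the count matrix, which held 24421 genes in all, and Erg28 was found under its older symbol 0610007P14Rik. The series held 4 bulk libraries of B16F10, a melanoma line of C57BL/6 mice, with 2 libraries in each group. All cells had been transduced with lentivirus and selected with puromycin. The shControl cells carried a vector that the labels call a control shRNA and the study's methods an empty vector, and the shLmna cells carried a short hairpin RNA (shRNA) that targets Lmna, which encodes the nuclear lamins A and C. The labels do not say whether a group came from 1 transduction or several. Nothing says that libraries of a group came from separate cultures. The p-values below therefore weigh a group difference only against the spread between libraries of 1 group. A difference that arose between the populations in transduction or selection cannot be told apart from the knockdown. Nor can an effect of the hairpin other than the loss of lamin A/C, since the shLmna libraries carried 1 hairpin.

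Cholesterol is built from acetyl-CoA by way of mevalonate, farnesyl diphosphate, squalene and lanosterol, by enzymes that sit mostly in the membrane of the endoplasmic reticulum. When sterols are scarce, SCAP carries the SREBP factors to the Golgi, where proteases release the part that enters the nucleus and switches on the enzymes of the pathway. When sterols are plentiful, INSIG proteins hold SCAP back. The lamin B receptor, encoded by Lbr, joins this pathway to the nuclear envelope: it tethers heterochromatin and B-type lamins to the inner nuclear membrane, and its membrane part is a sterol C14 reductase, an activity it shares with the product of Tm7sf2.

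The DNA just before the starts of 7 member genes is shown with fixed letters of a sterol element, which SREBP binds, and of boxes bound by its usual partners. Other letters that SREBP or its partners may bind were not searched. Hmgcs1 is the member that held the sterol letters, Lbr and Tm7sf2 encode the same enzyme activity, Nsdhl, Hsd17b7 and Msmo1 encode the enzymes that remove the C4 methyl groups, and Sc5d was a member that rose. Each line gives the 250 bases before the start annotated by RefSeq (GRCm38.p6), 5′ to 3′ on the gene's own strand, and capitals mark matches on either strand.
Hmgcs1 (chr13:119690101-119690350, plus strand): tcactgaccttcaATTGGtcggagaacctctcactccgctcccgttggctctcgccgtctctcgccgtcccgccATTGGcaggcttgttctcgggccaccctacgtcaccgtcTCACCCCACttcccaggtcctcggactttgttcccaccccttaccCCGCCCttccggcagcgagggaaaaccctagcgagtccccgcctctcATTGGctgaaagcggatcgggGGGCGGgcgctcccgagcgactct
Lbr (chr1:181842402-181842651, minus strand): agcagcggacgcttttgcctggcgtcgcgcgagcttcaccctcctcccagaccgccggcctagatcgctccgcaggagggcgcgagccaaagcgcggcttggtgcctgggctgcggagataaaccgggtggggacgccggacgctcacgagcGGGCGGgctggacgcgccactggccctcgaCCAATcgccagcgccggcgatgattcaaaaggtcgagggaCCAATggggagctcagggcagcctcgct
Tm7sf2 (chr19:6067851-6068100, minus strand): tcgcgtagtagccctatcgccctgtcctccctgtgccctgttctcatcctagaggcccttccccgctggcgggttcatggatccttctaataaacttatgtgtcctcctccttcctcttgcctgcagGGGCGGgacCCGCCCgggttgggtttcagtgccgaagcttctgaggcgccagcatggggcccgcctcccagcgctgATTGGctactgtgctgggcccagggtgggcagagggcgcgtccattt
Nsdhl (chrX:72918271-72918520, plus strand): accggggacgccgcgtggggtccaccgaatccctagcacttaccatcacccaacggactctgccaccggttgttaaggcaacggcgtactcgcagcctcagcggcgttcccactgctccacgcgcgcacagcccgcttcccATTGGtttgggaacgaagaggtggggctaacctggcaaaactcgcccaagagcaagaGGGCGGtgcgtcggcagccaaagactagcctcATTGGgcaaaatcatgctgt
Hsd17b7 (chr1:169969206-169969455, minus strand): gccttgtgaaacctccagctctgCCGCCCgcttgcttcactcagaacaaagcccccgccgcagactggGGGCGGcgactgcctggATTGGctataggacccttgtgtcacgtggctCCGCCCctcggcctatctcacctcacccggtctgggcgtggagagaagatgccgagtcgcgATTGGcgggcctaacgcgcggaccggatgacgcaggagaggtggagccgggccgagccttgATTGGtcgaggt
Msmo1 (chr8:64733579-64733828, minus strand): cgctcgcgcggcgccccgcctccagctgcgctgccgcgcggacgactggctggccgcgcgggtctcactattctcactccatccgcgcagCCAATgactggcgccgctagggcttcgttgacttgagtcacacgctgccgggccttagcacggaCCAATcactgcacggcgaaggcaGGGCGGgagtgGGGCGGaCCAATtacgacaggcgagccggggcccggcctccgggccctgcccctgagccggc
Sc5d (chr9:42264301-42264550, minus strand): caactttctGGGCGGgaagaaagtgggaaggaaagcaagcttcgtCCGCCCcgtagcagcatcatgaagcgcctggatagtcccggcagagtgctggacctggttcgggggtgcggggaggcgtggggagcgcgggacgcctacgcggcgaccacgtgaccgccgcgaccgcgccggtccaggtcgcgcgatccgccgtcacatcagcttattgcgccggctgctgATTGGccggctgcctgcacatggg

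The windows of Lbr and Tm7sf2 lie inside the longer gene spans of GENCODE, whose first start is farther upstream. Capitals mark a sterol element (TCACNCCAC), a CCAAT box (CCAAT) or a GC box (GGGCGG), and each was searched on both strands. Of the 29 members, 25 had an entry in the RefSeq table, with 33 starts in all; Fdps, Fdft1, Sqle and Stard4 had none. The sterol letters stood before 1 member start, that of Hmgcs1 at position -137 from the start, and before 1.05% of the 32851 starts in the table. A CCAAT box stood before 21 of the 33 member starts and before 33.8% of all starts. A GC box stood before 25 of the 33 member starts and before 32.7% of all. Lbr and Tm7sf2 both had CCAAT and GC boxes in this window and no sterol letters. A match is a description of the letters and not a site shown to be bound.

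Lmna was checked first because it is the hairpin's target. It had 2826 and 2684 counts in the controls and 331 and 480 after knockdown, a log2 difference of -2.61 (SE 0.142) and a loss of 83.6% (edgeR quasi-likelihood test with Benjamini-Hochberg adjustment over 9150 genes, adjusted p = 7.93e-06). Library totals ran from 2494880 to 3808843 counts, lowest in shLmna 1. Pigment cell markers were abundant, with at least 22431 counts of Pmel in every library, except Tyr, the gene of tyrosinase, at 1, 1, 3 and 7. In shLmna, Sox10 was lower (log2 fold change -0.89) and Mlana (0.51) and Pmel (0.41) were higher (edgeR test, adjusted p = 0.00161, 0.0051 and 0.0258), while Mitf, Tyrp1 and Dct did not pass. Over the 12 alternatives described below, Sox10 kept its call, while Mlana lost it in 1 and Pmel in 4. Of markers of other cells, Cdh5 and Ptprc had 0 counts in all 4 libraries, Pecam1 at most 4 and Col1a1 at most 13, while Pdgfrb had 20 to 38 and Cd68 27 to 54 and neither passed. Of all tested genes 9.74% were lower and 5.48% higher in shLmna at an adjusted p under 0.05.

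Among the cholesterol and SREBP genes, 25 of 29 passed the default filter on low counts and were tested. Lower in shLmna were 5 of the 25 (20.0%, beside 9.74% of all genes), namely Lbr, Sqle, Nsdhl, Acat2 and Fdps. Higher were 3 (12.0%, beside 5.48%), namely Sc5d, Insig2 and Erg28, and without Erg28, which rests on its older symbol, 2 of 24 were higher. The other 17 did not pass. With the study's further limits, a log2 fold change over 1 in size and a mean normalised count over 5, Lbr and Sqle remained on the lower side, where 5.88% of all genes fell, and 0 members remained on the higher side, where 1.76% of all genes fell. For that count of 0, 4 members were higher at an unadjusted p under 0.05 in edgeR, and DESeq2 also gave 0. The median log2 fold change of the tested members was -0.06, against -0.00107 for all tested genes, with 14 members negative and 11 positive. Both shLmna libraries lay below both shControl libraries for 9 of the 25 and above them for 8, while 30.6% and 29.5% of all tested genes did so. In bulk RNA, fewer cells that express a gene and less of its RNA per cell cannot be told apart.

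**Figure D1:**
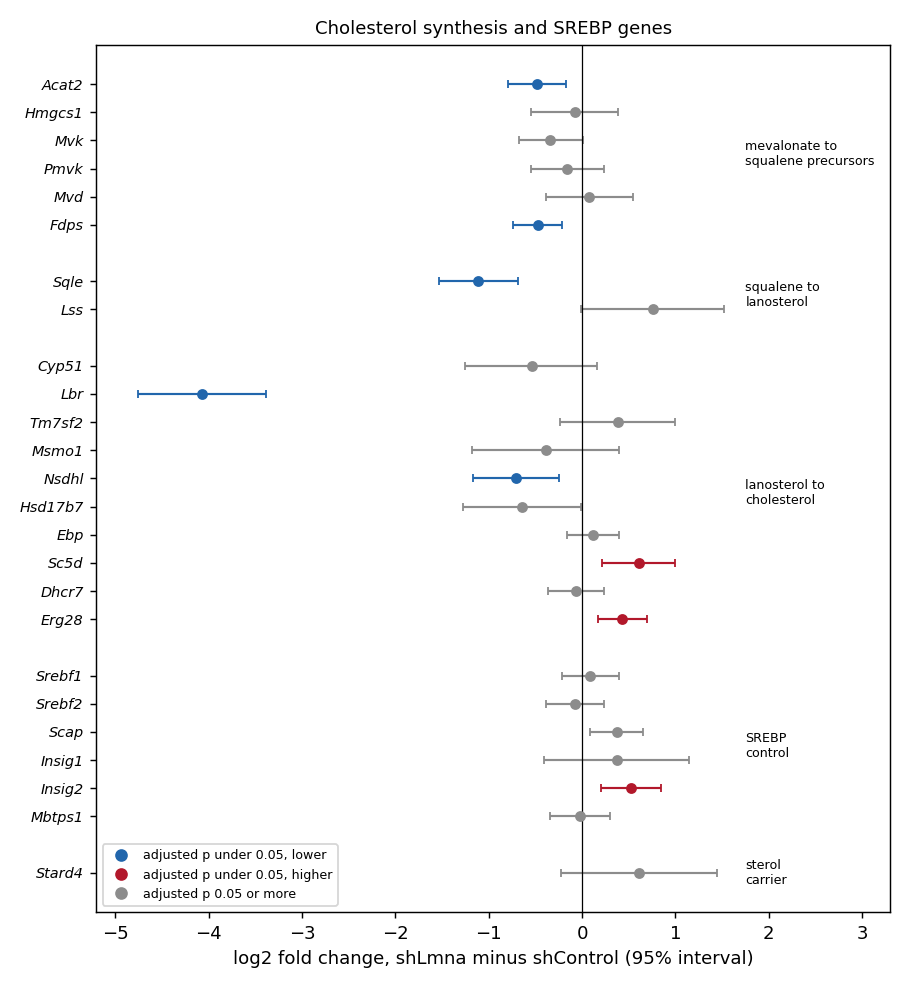
Log2 fold change of the 25 tested members, shLmna minus shControl, with 95% intervals, ordered along the pathway from acetyl-CoA at the top to the SREBP genes and the carrier Stard4 at the bottom. Lbr at -4.07 stands far to the left of the other 24, whose values lie between -1.11 for Sqle and 0.76 for Lss.

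Lbr showed the largest change among the members. The control libraries held 99 and 113 of its counts, and the shLmna libraries held 5 and 6. Scaled by library size (CPM), that was 30.5 ± 0.290 against 1.81 ± 0.242 (mean ± SD, n = 2). The shLmna libraries were close to each other and far below both controls. This is a 16.8-fold difference, or -4.07 on the log2 scale (SE 0.308, 95% interval -4.76 to -3.38) (edgeR quasi-likelihood test, adjusted p = 2.68e-05). Lbr lies on chromosome 1 of mm10 (chr1:181815335-181843046 in GENCODE, minus strand, 14 exons), and its reads were counted at the 3′ end. It passed under every one of the 12 alternatives, with adjusted p up to 0.00238. Its log2 fold change shrank to -0.66 in the authors' batch-corrected log2 values, where that of Lmna was -1.54 in place of -2.61.

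The 3′ end of Lbr was poor in G and C, at 33.4% of its last 1000 bases. GC classes were set after the values were seen. Among 645 tested genes with under 36% GC, 39.8% passed as lower and 7.0% as higher, against 6.8% and 3.3% of 3371 genes with 50% or more. Of the 144 tested genes with a log2 fold change below -4, 93 lay in that lowest class. Hmgcs1, the other tested member in it, has a GC content of 34.8% and a log2 fold change of -0.08. Mbtps2, a member with 34.6%, was left out by the filter on low counts. With an offset fitted to GC content in each library, the log2 fold change of Lbr was -3.66. Across genes, Pearson's r between GC content and log2 fold change was 0.336 over the 25 tested members, 0.0546 over the 24 without Lbr and 0.192 over 9085 tested genes; genes are not independent replicates, and these values are descriptions. Another gene, Dnah14, overlaps the counted window of Lbr on the opposite strand and was not analysed here. The strand setting of the counting is not given in the sources used here.

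**Figure D2:**
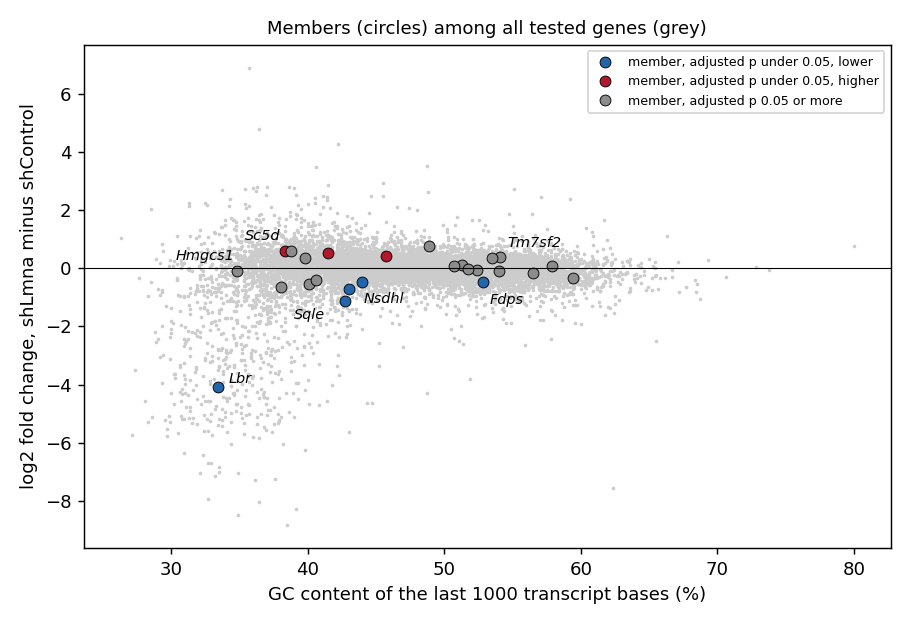
GC content of the last 1000 transcript bases against log2 fold change (shLmna minus shControl) for the 25 tested members (circles) and all tested genes (grey). Large falls were most frequent under 40% GC, where Lbr lies at 33.4%, while Hmgcs1 at 34.8% is close to 0.

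Tm7sf2, the other sterol C14 reductase gene, did not pass the test. It had 27 and 39 counts in the controls and 32 and 44 in the knockdown libraries. The CPM values were 8.36 and 10.4 against 12.7 and 12.0, so both shLmna libraries were above both controls. The log2 fold change was 0.38 with an interval of -0.24 to 1.0 (edgeR quasi-likelihood test, adjusted p = 0.395), a range that runs from a small fall to a rise of about 1 on the log2 scale.

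Both genes were counted over a 3′ window of the same length, but their 3′ ends differ in GC content, at 33.4% and 54.1%, and whether reads of both are captured alike was not tested. Lbr made up 78.6% and 74.3% of the counts of the pair in shControl 1 and 2 (95% Wilson intervals 70.6% to 84.8% and 66.9% to 80.6%). In shLmna 1 and 2 it made up 13.5% and 12.0% (5.91% to 28.0% and 5.62% to 23.8%). Lbr thus had more counts than Tm7sf2 in both control libraries and fewer in both knockdown libraries. The ratio of Lbr to Tm7sf2 counts was 3.67 and 2.90 in shControl and 0.156 and 0.136 in shLmna. Summed over both genes, the level was 39.9 ± 1.18 CPM in shControl and 14.1 ± 0.715 CPM in shLmna (n = 2), a ratio of 2.82. The intervals cover counting error only, and an exact permutation test of 2 libraries against 2 cannot give a p below 0.333.

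**Figure D3:**
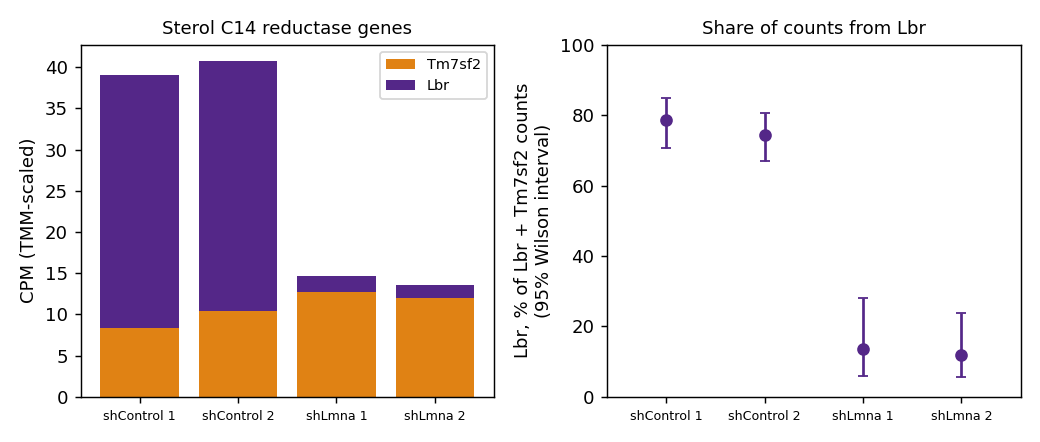
Left, level of Tm7sf2 (orange) and Lbr (purple) stacked, in TMM-scaled CPM, for each library. Right, Lbr as a percentage of the counts of both genes with 95% Wilson intervals: 78.6% and 74.3% in shControl, 13.5% and 12.0% in shLmna.

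In the first stretch of the pathway, from acetyl-CoA to farnesyl and geranylgeranyl diphosphate, 2 of 6 tested genes fell (33.3%, beside 9.74% of all genes). None rose (beside 5.48% of all genes), and the median log2 fold change was -0.25. Acat2 encodes the cytosolic thiolase that joins acetyl-CoA units. It had 84.9 and 82.2 CPM in shControl and 62.5 and 57.8 CPM in shLmna, groups that did not overlap. The difference was a fall of 28.2%, or -0.48 on the log2 scale (SE 0.138) (edgeR quasi-likelihood test, adjusted p = 0.0448). This call was a narrow one. Adjusted p ran from 0.00794 to 0.27 over the alternatives, and it was 0.268 with DESeq2, 0.0588 with library totals, 0.0551 without shControl 1, 0.167 without shLmna 1 and 0.27 without shLmna 2. Of the 31-base stretches in the last 1000 bases of Acat2, 21.24% also occur in Acat3, which had at most 1 count in any library.

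Fdps, which encodes farnesyl diphosphate synthase, had the highest counts of the members, from 743 in shLmna 1 to 1601 in shControl 2. Its levels were 414 and 429 CPM in shControl and 294 and 312 CPM in shLmna, so every knockdown library lay below every control. The fall was 28.0%, with a log2 fold change of -0.47 and an SE of 0.119 (edgeR quasi-likelihood test, adjusted p = 0.0253). Adjusted p ran from 0.00274 to 0.218 over the alternatives, at 0.218 without shLmna 1 and 0.148 without shLmna 2. The source of these reads is uncertain, because 92.27% of the 31-base stretches in its last 1000 bases also occur in other genes. Gm43738, Gm3571 and Gm5873 share the most, and none of them had a row in the count matrix. Gm43738 also overlaps Fdps on the same strand.

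The 4 mevalonate genes between them did not pass. Hmgcs1 encodes the synthase that makes HMG-CoA and is a classic SREBP target. It had 71.9 and 45.5 CPM in shControl and 57.3 and 53.4 CPM in shLmna, with both shLmna values inside the control range, and a log2 fold change of -0.08 (95% interval -0.55 to 0.39). Its sign was not firm, since the value was 0.28 without shControl 1 and 0.16 with the GC offset. The kinase gene Mvk had 70.0 and 59.2 CPM in shControl and 49.0 and 52.9 CPM in shLmna. Its groups did not overlap, and its interval ran from -0.68 to 0.01 on the log2 scale (edgeR quasi-likelihood test, adjusted p = 0.181). For Pmvk, the gene of phosphomevalonate kinase, log2 fold change was -0.16 (-0.55 to 0.23), and for Mvd, the gene of the decarboxylase, it was 0.07 (-0.39 to 0.54). Both had overlapping groups. Without shControl 1 the value of Pmvk was 0.07, and without shControl 2 that of Mvd was -0.03.

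Idi1, the gene of isopentenyl diphosphate isomerase, and Ggps1, the gene of geranylgeranyl diphosphate synthase, were left out by the filter on low counts. In shControl Idi1 reached 6 and 7 counts and Ggps1 4 and 8. In shLmna they reached 6 and 12, and 2 and 5. Without the filter, the log2 fold change was 0.61 for Idi1 (95% interval -0.69 to 1.91) and -0.60 for Ggps1 (-2.31 to 1.12), and neither passed.

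Sqle encodes squalene epoxidase, which uses oxygen to open the way to the sterol ring and is often named as a point of control of the pathway. It was the second member to pass all limits. The controls held 321 and 378 counts and the knockdown libraries 91 and 204, or 99.4 and 101 against 36.0 and 55.6 CPM. The control libraries were nearly equal, and the shLmna libraries were both lower but differed 1.54-fold from each other. Sqle was 53.6% lower, or -1.11 on the log2 scale (SE 0.189, 95% interval -1.53 to -0.69) (edgeR quasi-likelihood test, adjusted p = 0.0041). It passed the adjusted test in all 12 alternatives, with adjusted p up to 0.0348. The size was less firm: it was -0.85 without shLmna 1, inside the limit of 1, and -1.46 without shLmna 2. In the batch-corrected values it was -0.47, but the log2 fold changes of Lbr and Lmna were smaller there too. That value therefore cannot be held to the same limit.

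The other genes of that stretch did not show a fall. Lss, the gene of lanosterol synthase, which closes the rings, had 15 and 20 counts in the controls and 20 and 33 after knockdown. Both shLmna libraries were higher after scaling by library size (7.91 and 8.99 against 4.65 and 5.35 CPM), with a log2 fold change of 0.76 (-0.01 to 1.52; edgeR quasi-likelihood test, adjusted p = 0.17). Fdft1, the gene of squalene synthase, had 1, 1, 0 and 1 counts and was left out by the filter. Its counted window overlaps Ctsb, the gene of cathepsin B, on the opposite strand, and Ctsb itself had 36, 38, 15 and 32 counts. The part of this overlap in the low counts was not tested.

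From lanosterol to cholesterol, all 10 members could be tested. Of these, 2 fell (20.0%, beside 9.74% of all genes), 2 rose (20.0%, beside 5.48%) and 6 did not pass. Nsdhl is an X-linked gene of the complex that strips the methyl groups from C4 of the sterol. It had 34.4 and 39.4 CPM in shControl and 20.2 and 24.5 CPM in shLmna, groups that did not overlap. Nsdhl was lower by 39.0%, a log2 fold change of -0.71 with an SE of 0.206 (edgeR quasi-likelihood test, adjusted p = 0.044). Over the alternatives the adjusted p ran from 0.0074 to 0.27, and it was 0.27 with DESeq2, 0.106 without shControl 2, 0.255 without shLmna 1 and 0.13 without shLmna 2.

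The partners of Nsdhl in C4 demethylation gave mixed values. Hsd17b7, the ketoreductase gene of that step, had 12.4 and 13.1 CPM in shControl and 7.12 and 8.99 CPM in shLmna. Both knockdown libraries were lower, with a log2 fold change of -0.64 (-1.27 to -0.01), but the adjusted p was 0.158 in the edgeR quasi-likelihood test. Msmo1, the gene of the C4 methyl oxidase, held 171 and 266 counts in the controls and 61 and 249 after knockdown. It differed more between the shLmna libraries, at 24.1 and 67.8 CPM, than between the group means of 62.1 and 46.0 CPM. Its log2 fold change of -0.39 (-1.18 to 0.40) became 0.13 without shLmna 1 and -1.35 without shLmna 2, where it passed (edgeR quasi-likelihood test, adjusted p = 0.0373). With the replicate number as a block it was -0.51 and passed at an adjusted p of 0.0311, and over all its alternatives adjusted p ran from 0.0311 to 0.91. Erg28, thought to hold the C4 enzymes together, went the other way. Its levels were 177 and 171 CPM in shControl and 230 and 239 CPM in shLmna, a 1.35-fold rise, or 0.43 on the log2 scale (SE 0.117) (edgeR quasi-likelihood test, adjusted p = 0.0346). Adjusted p for Erg28 ran from 0.00476 to 0.198 and was 0.0625 with DESeq2, 0.0605 with the GC offset, 0.0678 without shControl 2, 0.155 without shLmna 1 and 0.198 without shLmna 2.

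Cyp51, the gene of the C14 demethylase that makes the substrate of the C14 reductases, resembled Msmo1 in its split. The controls held 58 and 69 counts and the knockdown libraries 20 and 60. Its log2 fold change was -0.54 (-1.25 to 0.16; edgeR quasi-likelihood test, adjusted p = 0.287), at -0.15 without shLmna 1 and -1.19 without shLmna 2. In shLmna 2 the level was 2.81 times that of shLmna 1 for Msmo1, 2.07 times for Cyp51 and 1.54 times for Sqle. These 3 genes were picked out after their values were seen. The same ratio was 1.17 for Sc5d, and outside the members it was 1.87 for Tyrp1 and 1.68 for Acly. The counted window of Cyp51 overlaps Akap9 on the opposite strand.

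**Figure D4:**
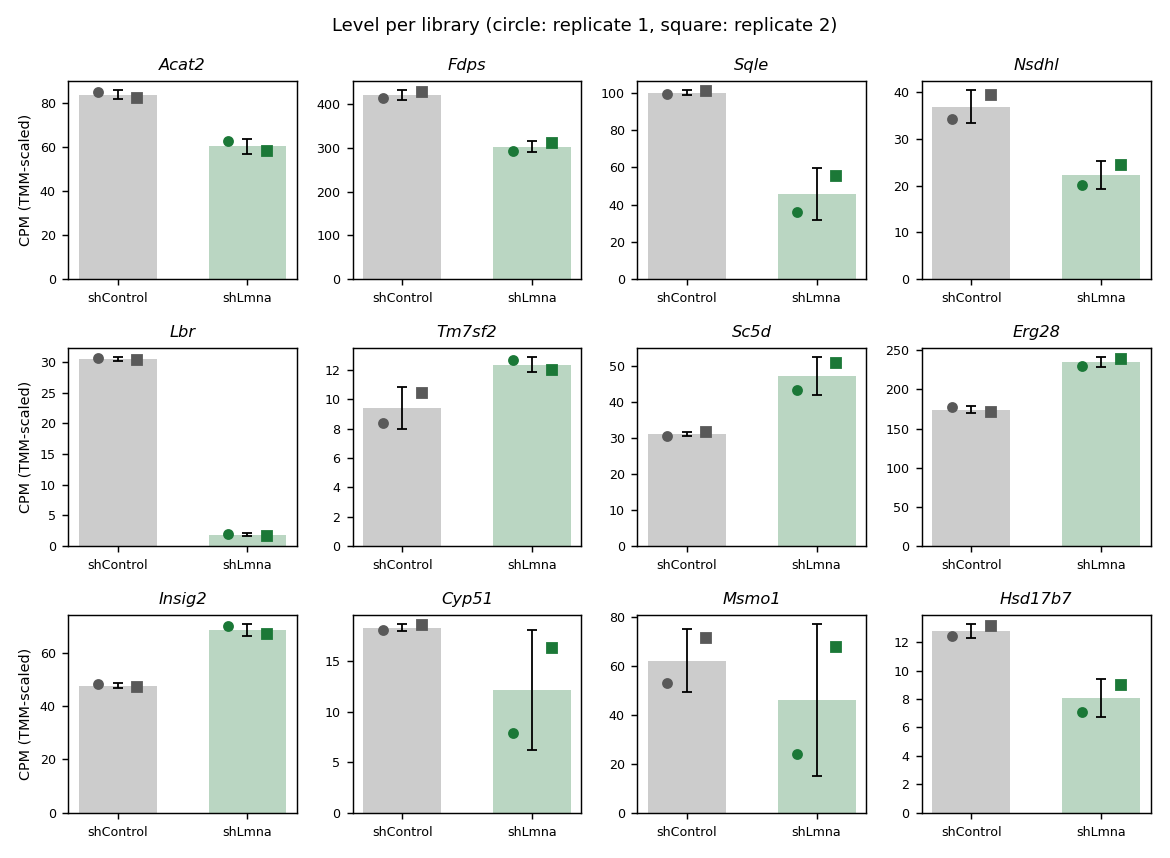
TMM-scaled CPM in each library for 12 members, with the group mean as a bar, the SD (n = 2) as an error bar, and replicate 1 as a circle and replicate 2 as a square. Lbr falls to 1.98 and 1.63 CPM while Tm7sf2 does not, and Cyp51 and Msmo1 differ between the shLmna libraries more than Acat2, Fdps or Insig2 do.

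Sc5d encodes the desaturase that adds the double bond at C5, late in the pathway. It had 30.7 and 31.6 CPM in shControl and 43.5 and 50.9 CPM in shLmna, and both knockdown libraries exceeded both controls. The rise was 1.52-fold, or 0.61 on the log2 scale (SE 0.177) (edgeR quasi-likelihood test, adjusted p = 0.0459). Adjusted p for Sc5d ran from 0.00876 to 0.284 over the alternatives. It exceeded the limit with DESeq2 (0.284) and without any single library, at 0.0518 and 0.06 without shControl 1 and 2, and 0.112 and 0.273 without shLmna 1 and 2.

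The neighbours of Sc5d in the late steps were nearly level. Ebp, the gene of the sterol isomerase, had 159 and 138 CPM in shControl and 163 and 161 CPM in shLmna (log2 fold change 0.12, -0.16 to 0.40). Dhcr7, the gene of the reductase that completes one branch, had 75.6 and 74.7 against 73.6 and 70.3 CPM (log2 fold change -0.06, -0.37 to 0.24). Their intervals exclude a change of 1 on the log2 scale in either direction.

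Of the genes that control the pathway, 1 of 6 tested passed, as higher (16.7%, beside 5.48% of all genes). Insig2 encodes one of the proteins that keep SCAP in the endoplasmic reticulum. It had 48.3 and 47.1 CPM in shControl and 70.0 and 67.0 CPM in shLmna, tight pairs that did not overlap. Insig2 rose 1.43-fold, or by 0.52 on the log2 scale (SE 0.144) (edgeR quasi-likelihood test, adjusted p = 0.0377). Over the alternatives adjusted p ran from 0.00622 to 0.249, and it was 0.249 with DESeq2, 0.0704 with the GC offset, 0.0772 without shControl 2, 0.21 without shLmna 1 and 0.16 without shLmna 2. Insig1, its paralogue and itself an SREBP target, was low, at 8.67 and 6.43 CPM in shControl and 12.3 and 7.63 CPM in shLmna, with a log2 fold change of 0.37 (-0.41 to 1.15).

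Scap itself was higher in both knockdown libraries, at 145 and 133 CPM against 111 and 105 CPM in shControl. Its log2 fold change was 0.37 (0.09 to 0.65), and it did not pass (edgeR quasi-likelihood test, adjusted p = 0.0806). Adjusted p for Scap ran from 0.00969 in the batch-corrected values to 0.38, and it was 0.0418 with the replicate block.

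The SREBP genes showed no detectable change in RNA. Srebf1, whose product favours fatty acid genes, had 104 and 121 CPM in shControl and 126 and 114 CPM in shLmna (log2 fold change 0.09, -0.21 to 0.40, and -0.01 without shControl 1). Srebf2, whose product favours cholesterol genes, had 73.4 and 72.6 against 73.2 and 65.7 CPM (log2 fold change -0.08, -0.39 to 0.24, and 0.02 without shLmna 2). For both genes the groups overlapped. The counted window of Srebf1 overlaps Rai1 on the opposite strand. RNA level does not report how much of either protein is cleaved.

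The proteases that release SREBP are encoded by Mbtps1 and Mbtps2. Mbtps1 had 83.9 and 72.3 CPM in shControl and 78.3 and 75.7 CPM in shLmna, with a log2 fold change of -0.02 (-0.34 to 0.30). Its sign turned with library totals (0.01), without shControl 1 (0.09) and without shLmna 2 (0.02). Mbtps2 was counted 1 time in shControl 1, 38 times in shControl 2 and never (0 counts) after knockdown. Against a floor of 3 counts in each shLmna library, its control mean of 5.24 CPM was at least 5.23-fold higher, but that bound rests on shControl 2 alone, since without it both groups are under the floor. The filter on low counts left it out of the test. Without that filter it passed as lower (edgeR quasi-likelihood test, adjusted p = 4.55e-08), whereas DESeq2 gave an adjusted p of 0.428.

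Stard4, a soluble protein gene whose product carries cholesterol between membranes, had 21 and 16 counts in the controls and 24 and 26 after knockdown. Both shLmna libraries were higher after scaling by library size, at 9.49 and 7.08 against 6.50 and 4.28 CPM. Its log2 fold change was 0.61 (-0.23 to 1.45; edgeR quasi-likelihood test, adjusted p = 0.313).

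**Figure D5:**
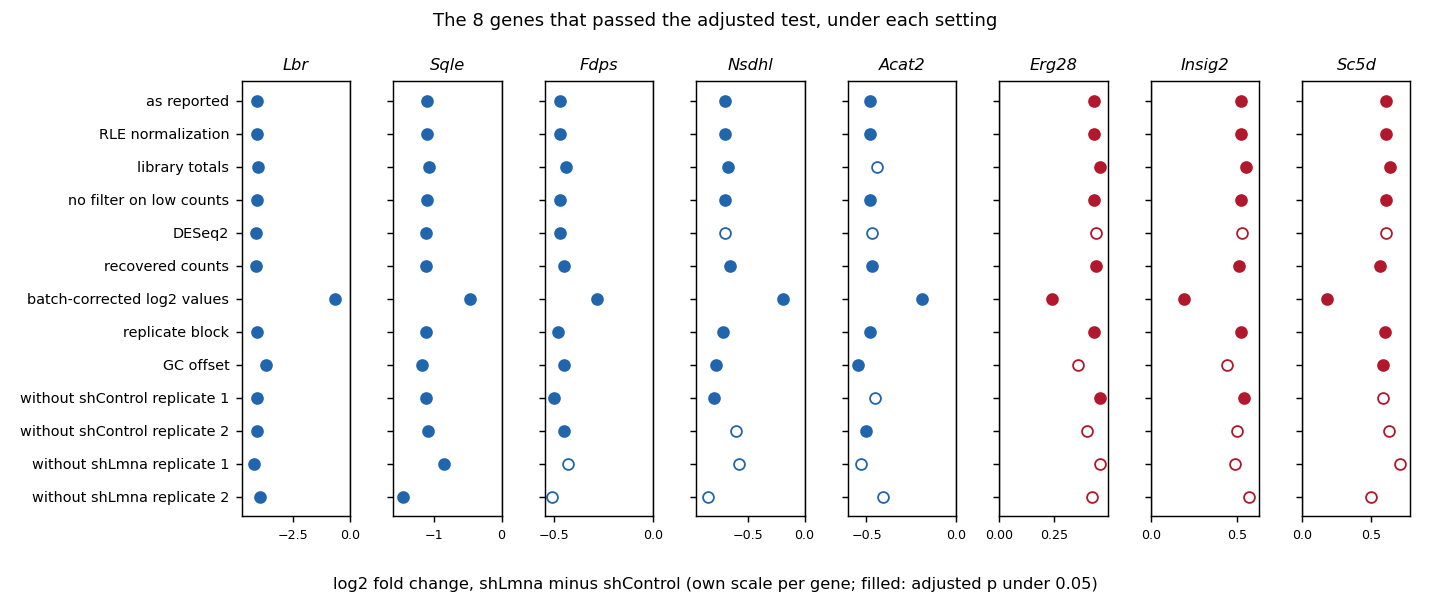
Log2 fold change (shLmna minus shControl) of the 8 members that passed, as reported and under 12 other settings, each gene on its own scale. Filled circles passed at an adjusted p under 0.05: Lbr and Sqle were filled in every row, and the other 6 lost the call in 2 to 5 settings.

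Other genes of sterol and lipid handling were counted for comparison, 100 in 7 lists. Of these, 99 matched and 82 could be tested, with 6 lower (7.32%) and 4 higher (4.88%) beside 9.74% and 5.48% of all genes.

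Of 7 genes of electron donors and haem-binding partners of the sterol enzymes, 2 were lower (28.6%, beside 9.74% of all genes) and 1 was higher (14.3%, beside 5.48%). Pgrmc1 encodes a haem protein that binds and supports CYP51. The controls held 39 and 67 of its counts and the knockdown libraries 1 and 5, a difference of -3.92 on the log2 scale (SE 0.494; edgeR quasi-likelihood test, adjusted p = 0.000686). Its 3′ end also had a low GC content, 37.4%. Cyb5r3, the gene of the reductase that feeds cytochrome b5, fell by 47.2%, from 577 and 711 CPM to 346 and 335 CPM (edgeR quasi-likelihood test, adjusted p = 0.0017, and 0.0525 without shLmna 2). Cyb5a, the gene of cytochrome b5 itself, rose from 283 and 335 CPM to 388 and 535 CPM (edgeR test, adjusted p = 0.0422, but 0.0641 with the GC offset and 0.308 without shLmna 2).

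Of 16 tested fatty acid genes under SREBP1, 3 fell (18.8%, beside 9.74% of all genes) and 1 rose (6.25%, beside 5.48%). Acsl3, an acyl-CoA synthetase gene of lipid droplets, went from 116 and 173 counts to 17 and 18, a 7.19-fold fall with a 3′ end of 37.3% GC (edgeR quasi-likelihood test, adjusted p = 0.000128). Acly, the gene of the enzyme that makes cytosolic acetyl-CoA, had 186 and 155 CPM in shControl and 75.9 and 127 CPM in shLmna (edgeR test, adjusted p = 0.0435, but 0.0681 in the batch-corrected values and 0.265 without shLmna 1). Scd2, a desaturase gene, fell by 25.7% (edgeR test, adjusted p = 0.0365, but 0.311 and 0.16 without shLmna 1 and 2). Me1, the malic enzyme gene that supplies NADPH, rose 1.68-fold (edgeR test, adjusted p = 0.00917, but 0.0906 and 0.0616 without shLmna 1 and 2).

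The counts of the remaining lists stand beside 9.74% lower and 5.48% higher of all genes. Of 9 export and LXR genes, 1 fell (11.1%). This was Nr1h2, which encodes the sterol-sensing receptor LXR beta, with a log2 fold change of -0.61 (edgeR quasi-likelihood test, adjusted p = 0.0166, but 0.0959 and 0.172 without shLmna 1 and 2). Of 19 transport genes 1 rose, Osbpl8, at 4.96 and 6.16 CPM in shControl and 9.89 and 17.4 CPM in shLmna (edgeR test, adjusted p = 0.0336, but 0.242 with DESeq2 and 0.352 without shLmna 2). Of 11 genes of ligases and partners of protein degradation in the endoplasmic reticulum, Ube2g2, a ubiquitin-conjugating enzyme gene, rose 1.61-fold (edgeR test, adjusted p = 0.0326, but 0.0704 without shControl 2, 0.225 without shLmna 1 and 0.106 without shLmna 2). Of 15 genes that use isoprenoids, 0 passed in the edgeR test, with 0 lower and 2 higher at an unadjusted p under 0.05.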

How the data were processed

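RNA of 2 shControl and 2 shLmna libraries was profiled by MARS-seq, which primes at the poly(A) tail and sequences 3′ ends. According to the methods, the authors trimmed reads with cutadapt, aligned them to mm10 with STAR 2.4.2a marked duplicates of molecular identifiers (UMIs) and then counted UMIs with a modified HTSeq over the last 1000 bases of RefSeq genes and a short stretch downstream. The authors deposited raw counts per gene symbol, the input of the main test; the methods do not tie the UMI counting to this matrix or to the next table. Another table the authors deposited gives a signal per gene, its count divided by a DESeq2 size factor. The matrix exceeded the whole counts recovered from it by a factor of 1.08 to 1.09. It also held the authors' p-values, which were not used. The last deposited table held batch-corrected log2 values, with batches not named.

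Counts were fitted with edgeR 4.0.16 (quasi-likelihood F test, two-sided, TMM scaling, default filterByExpr, group as the one term) in R 4.3.3, and p-values were adjusted by Benjamini-Hochberg over 9150 genes. CPM are TMM-scaled, and a fold change is shLmna minus shControl on the log2 scale. The script was tested on simulated data. Alternatives were RLE scaling, library totals, no filter on low counts, DESeq2 1.42.0, recovered counts, limma 3.58.1 on the batch-corrected values, a replicate block, an offset on GC content and leaving out each library, where a lone library is assumed to vary like the other group. Replicates differed by more than sampling noise (chi-square per degree of freedom 6.96 and 3.91). A floor of 3 counts was 0.803 to 1.19 CPM. GC content, shared stretches of 31 bases and overlaps came from GENCODE M21 transcripts. Named were all members, the genes of the other lists that passed, Lmna and the cell type markers; some genes named by the rule are not reported here. The members, lists and tests were chosen with earlier results of these data known.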

Additional observations from a re-analysis of the deposited data

How the results depend on the processing

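Of 312 log2 fold changes (25 members and Lmna under 12 alternatives), 269 kept their direction and their side of the threshold, 26 lost significance, 7 gained it and 10 changed sign. Signs changed for Hmgcs1 (0.16 with the GC offset, and -0.38 to 0.28 when 1 library was left out), Mbtps1 (0.01 with library totals, and -0.13 to 0.09, with 0.02 without shLmna 2) and, with 1 library left out, Pmvk (-0.37 to 0.07), Mvd (-0.03 to 0.17), Msmo1 (-1.35 to 0.13), Srebf1 (-0.01 to 0.20) and Srebf2 (-0.15 to 0.02). None of these had passed. The 5 members that fell became 3 with DESeq2 and 2 to 5 when 1 library was left out. The 3 that rose became 0 with DESeq2, 6 in the batch-corrected values, 1 with the GC offset and 0 to 2 when 1 library was left out. The 2 members past all limits became 0 in the batch-corrected values and 1 to 3 when 1 library was left out. In the other lists, the 6 that fell became 10 in the batch-corrected values and 3 to 8 when 1 library was left out, and the 4 that rose became 18 and 0 to 8. These counts can include genes that had not passed as reported, such as Mbtps2 or Msmo1 among the members that fell. An equal count therefore need not hold the same genes. As reported and with the GC offset, 25 members and 82 genes of the other lists were fitted. The batch-corrected values held 28 members and 88 such genes, and DESeq2 fitted 29 and 96. In the batch-corrected values Lbr was at -0.66 and Lmna at -1.54, both smaller in size than as reported. The limit of 1 on the log2 fold change therefore does not compare like sizes there. Counts over all genes also changed with the setting, as given below. The cause was not tested.

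Replicate numbers did not pair the libraries (correlation of same-numbered deviations 0.0129 over 9150 genes). With the replicate block, 6 members fell and 4 rose, adding Msmo1 and Scap, and 8 genes of the other lists rose. All genes lower and higher numbered 891 and 501 of 9150 as reported, 833 and 518 with the GC offset and 1220 and 852 with the block. They numbered 1992 and 1784 of 10417 in the batch-corrected values and 589 and 218 of 13616 fitted with DESeq2. With 1 library left out they numbered 436 and 119 (without shLmna 1), 414 and 89 (without shLmna 2), 820 and 566 (without shControl 2) and 1329 and 775 (without shControl 1). Low counts kept Idi1, Ggps1, Fdft1 and Mbtps2 out of the main test; without the filter, Mbtps2 alone of the 4 passed, and its control counts come from shControl 2 but for 1.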
